A study of Rattus norvegicus with 4 samples.

Results

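Cardiac myocytes store the calcium that drives each beat in the sarcoplasmic reticulum, and 10 genes of this cycle were followed in neonatal rat ventricular myocytes grown with or without a fibronectin coat: Atp2a2, Casq2, Casq1, Pln, Ryr2, Slc8a1, Hrc, Trdn, Itpr1 and Atp2b1. Every probe set whose single gene symbol in the platform annotation was one of these was taken. All 10 were on the array, among 10411 genes named there, with 19 of its 15875 probe sets. Of these 19, 14 passed the filter on dim signal and were tested, and the other 5 are given as values without a test.

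At each beat calcium entering through surface channels opens the ryanodine receptor of the reticulum, which releases stored calcium onto the myofilaments. The cell then relaxes as a pump returns calcium to the reticulum and an exchanger carries the rest out across the plasma membrane. Within the reticulum calsequestrin binds calcium beside the release channel, to which triadin tethers it. The balance between the pump and its inhibitor phospholamban is widely studied in cardiac hypertrophy and failure.

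The study, whose title concerns hypertrophy, compared 2 groups of 2 samples, each read on 1 Affymetrix rat array with total RNA. Control myocytes were plated on uncoated dishes and the others on dishes coated with fibronectin, a matrix glycoprotein bound by integrins. Both groups shared the same schedule, 24 h in 10% serum and then 48 h without serum, so that no group was free of the serum step. Strain, litter and the number of animals are not given in the labels, nor is it said that the samples of a group were separate cultures, so the p-values below cover no more than the variation among these 4 samples, part or all of which may be technical.

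The arrays did not group by coating. Over the 9519 tested probe sets, not independent of each other, Pearson's r of the log2 signals was 0.910 for the control pair and 0.792 for the fibronectin pair, while fibronectin replicate 2 had r from 0.775 to 0.794 with the other 3 arrays. Ventricular myocyte markers were abundant throughout: none of the 10 measured of 11 listed was at the detection floor on all arrays, and their summed quantile-normalized intensity was 71750 and 72377 on the controls and 75631 and 80244 on fibronectin. By gene, 6 of these 10 were higher on fibronectin after normalization and 4 lower, with a median log2 difference of 0.11. The deposited intensities of the same markers summed to 54109 and 56922 against 86091 and 112116. Fibroblast markers were present as well, with 8 of 9 lower on fibronectin after normalization and normalized sums of 31741 and 47738 on the controls against 18397 and 30635. Their deposited sums, 25532 and 37292 against 22418 and 37939, overlapped. The 3' to 5' signal ratio of the Gapdh control transcript was 1.64 and 1.15 on the controls and 6.02 and 3.52 on fibronectin. That of beta-actin was 1.46 and 1.40 against 13.0 and 6.29, and that of hexokinase, where the groups overlapped, 3.77 and 4.12 against 3.11 and 7. In such bulk samples fewer cells of a type and less RNA per cell cannot be told apart.

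None of the calcium cycling genes reached an adjusted p under 0.05 in limma's test (Benjamini-Hochberg over all 9519 tested probe sets, of which 0% passed). At an unadjusted p under 0.05, 2 of the 14 tested probe sets were lower and 0 higher, one each of Atp2a2 and Casq2. Over all tested probe sets 3.81% were lower and 2.66% higher at that p. Both fibronectin arrays lay below both controls in 6 of the 14 and above them in 1. Of all tested probe sets, 19% lay lower and 19.3% higher without overlap. All 3 tested Atp2a2 probe sets were among the 6. By the brightest tested probe set of each of the 10 genes, 2 lay lower without overlap and 1 higher, or 20% and 10%. Over 7101 genes these shares were 17.2% and 20.6%. Counted by gene, 6 were lower and 4 higher, with a median difference of -0.32 against 0.02. The median log2 difference of the 14 was -0.41, against -0.02 over all tested probe sets. It was -0.19 on the deposited scale and -0.24 after each array was shifted to the same median.

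That pattern depended on how the arrays were brought to one scale. Signals were quantile normalized, which gives every array the same distribution. On the deposited scale, and with each array only shifted to the same median, 1 of the 14 probe sets was lower without overlap and 2 were higher. Over all tested probe sets 12.5% were lower and 20.6% higher without overlap on the deposited scale, and 16% and 20.6% after the median shift. Of the 14, 7 probe sets, those of Atp2a2, Casq2, Pln and Slc8a1 with the strongest signal, were among the brightest 10% of those tested. There the median difference over 952 probe sets was 0.03 after quantile normalization, 0.27 on the deposited scale and 0.22 after the median shift. The share of these 952 lower without overlap was 20.2%, 7.88% and 10.5% in the same order, and the share higher was 23.1%, 37.4% and 37.6%. An exact permutation test, two-sided, cannot go below p = 0.333 with 2 arrays against 2.

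**Figure D1:**
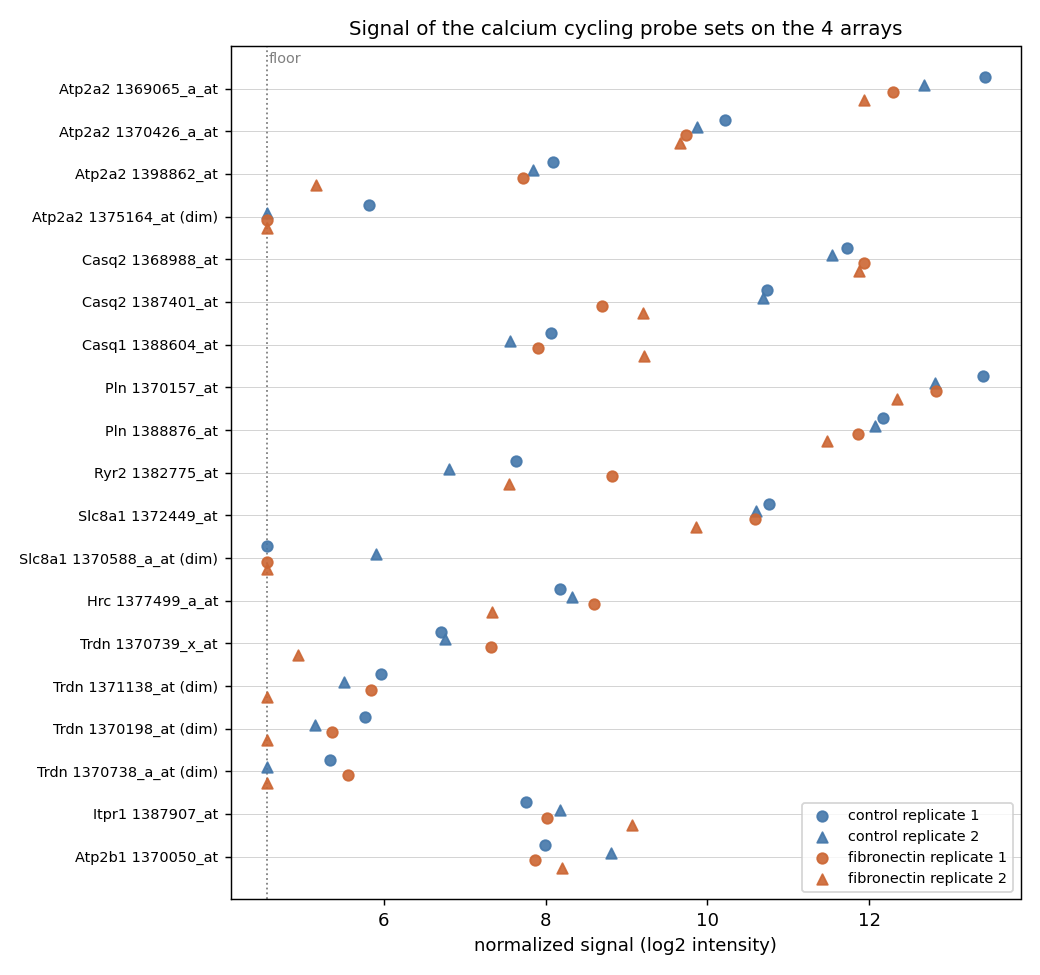
Each row is 1 of the 19 probe sets, and the horizontal axis is its normalized log2 intensity, with controls in blue, fibronectin arrays in orange, circles for replicate 1 and triangles for replicate 2. The dotted line is the floor of 4.55 and "dim" marks the 5 probe sets left out of the test. The 2 orange points of Casq2 1387401_at lie at 8.70 and 9.21, well to the left of the controls at 10.73 and 10.69, while in most other rows the colours are close or mixed.

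Atp2a2 encodes the pump that refills the sarcoplasmic reticulum, and after quantile normalization its signal was lower on both fibronectin arrays in each of its 3 tested probe sets, though on the deposited and median-shifted scales the groups overlapped in all 3. In probe set 1369065_a_at the deposited intensity was 7911 and 5158 on control replicates 1 and 2 and 6359 and 4086 on fibronectin replicates 1 and 2. The normalized log2 signal in the same order was 13.43, 12.68, 12.30 and 11.94. On the deposited scale the groups overlapped, as fibronectin replicate 1 exceeded control replicate 2, whereas after normalization they did not. The normalized mean was 13.05 ± 0.53 on uncoated dishes and 12.12 ± 0.26 on fibronectin (SD, n = 2 each), a 1.91-fold lower signal. Its log2 difference of -0.94 (SE 0.32, 95% interval -1.67 to -0.20) had limma's Benjamini-Hochberg adjusted p = 0.718. The difference was -0.33 on the deposited scale and -0.37 after the median shift. It was -0.56 without control replicate 1, the array with the highest value.

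The other Atp2a2 probe sets ordered the arrays alike but not by the same amount. Probe set 1370426_a_at measured 10.22 and 9.87 on the controls and 9.74 and 9.66 on the fibronectin arrays, a difference of -0.35 (SE 0.29). It was -0.17 without control replicate 1. Probe set 1398862_at measured 8.09 and 7.85 on the controls, 7.73 on fibronectin replicate 1 and 5.16 on fibronectin replicate 2. One array thus set most of its difference of -1.53 (SE 0.78), which was -0.25 without fibronectin replicate 2. Without fibronectin replicate 1 it was -2.81, with fibronectin replicate 2 set alone against the controls. The dim probe set 1375164_at was above the floor only on control replicate 1, at 5.82.

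A ratio of the deposited signals of 2 probe sets within an array is free of any constant by which that array was multiplied. The ratio of their normalized signals can differ from it, as quantile normalization moves bright and dim signals by different factors. Such ratios were taken up after the values were seen. In deposited signals the log2 ratio of 1369065_a_at to 1370426_a_at was 2.65 and 2.73 on the controls and 2.56 and 2.62 on fibronectin. After quantile normalization it was 3.20 and 2.81 against 2.56 and 2.28. The ratio of these 2 probe sets was thus nearly level on the deposited scale and lower on fibronectin after normalization. The deposited ratio of 1369065_a_at to 1398862_at was 4.73, 4.69 and 4.65 on the first 3 arrays and 7.13 on fibronectin replicate 2.

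Phospholamban, encoded by Pln, holds the pump back until it is phosphorylated under adrenergic drive. Its probe set 1370157_at measured 13.40 and 12.81 on the controls and 12.83 and 12.34 on fibronectin, so that the groups overlapped. Probe set 1388876_at measured 12.18 and 12.07 on the controls and 11.86 and 11.47 on fibronectin, lower without overlap. The differences were -0.52 (SE 0.30) and -0.46 (SE 0.26), and limma gave both a Benjamini-Hochberg adjusted p = 0.771. They came to 0.05 and -0.04 on the deposited scale, and after the median shift to 0.00 and -0.09, so the first changed sign with the scaling and the second was close to 0. Without control replicate 1 the first was -0.23, and without fibronectin replicate 2 the second was -0.26. The log2 ratio of the 2 probe sets was 0.93 and 0.75 on the controls and 0.96 and 0.90 on fibronectin in deposited signals, and 1.23 and 0.74 against 0.97 and 0.87 after normalization, overlapping in both.

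The signal of the pump relative to that of its inhibitor could be followed within each array, a comparison chosen after the values were seen. In deposited signals the log2 ratio of Atp2a2 1369065_a_at to Pln 1370157_at was 0.03 and -0.17 on the controls and -0.47 and -0.42 on fibronectin, 1.30-fold lower. Against Pln 1388876_at it was 0.96 and 0.59 on the controls and 0.50 and 0.48 on fibronectin. After quantile normalization both ratios were again lower without overlap, by 0.41 and 0.48 on the log2 scale. For Atp2a2 1370426_a_at the ratio to Pln 1370157_at was -2.62 and -2.90 against -3.02 and -3.04 in deposited signals. Its deposited ratio to Pln 1388876_at was -1.69 and -2.14 against -2.06 and -2.14, where the groups overlapped. After normalization the ratios of this Atp2a2 probe set to both Pln probe sets overlapped and their differences turned to 0.18 and 0.11, so no direction held for it. For Atp2a2 1398862_at the deposited ratios to the same Pln probe sets differed by -1.56 and -1.46 without overlap, and after normalization the groups overlapped. Fibronectin replicate 2 set most of both. The first ratio was -4.70 and -4.86 on the controls and -5.12 and -7.55 on fibronectin. The second was -3.77 and -4.11 against -4.16 and -6.65. On fibronectin replicate 2 the normalized signal of this Atp2a2 probe set, 5.16, was near the floor of 4.55. Ratios free of overlap were common: among 850 genes, 41.5% had none in the deposited ratio of their brightest 2 probe sets. No such share was computed for pairs of different genes. Unequal change of the probe sets is all that such ratios show, and the levels of the 2 transcripts cannot be compared with them.

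Casq2, the cardiac calsequestrin that buffers calcium inside the reticulum, gave opposite values in its 2 probe sets, which the annotation assigns to the same transcript record. Probe set 1368988_at had deposited intensities of 3095 and 2476 on the controls and 4804 and 3876 on the fibronectin arrays. Probe set 1387401_at had 1728 and 1408 on the controls and 520 and 479 on the fibronectin arrays. In each probe set the groups were apart, one higher and the other lower on fibronectin, and this held on the deposited, median-shifted and quantile-normalized scales.

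After normalization 1368988_at measured 11.63 ± 0.13 on uncoated dishes and 11.91 ± 0.04 on fibronectin (SD, n = 2 each), a log2 difference of 0.28 (SE 0.25). Its difference was 0.64 on the deposited scale and 0.59 after the median shift. For 1387401_at the means were 10.71 ± 0.03 and 8.95 ± 0.36 (SD, n = 2 each), 3.38-fold lower on fibronectin. Its difference of -1.76 (SE 0.31, 95% interval -2.47 to -1.04) had limma's Benjamini-Hochberg adjusted p = 0.510, with an unadjusted p of 0.000524. Of all tested probe sets 1.39% had a difference as low or lower. With any single array left out it ran from -2.01 to -1.50, and it was -1.64 on the deposited scale.

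Within each array the 5 pairs of tested probe sets of one gene could be compared, also a choice made after the values were seen. Among these the ratio differed most between the groups for Casq2. Since Casq2 was picked as the largest, the shares of other genes given below are description and no test. The deposited log2 ratio of 1368988_at to 1387401_at was 0.84 and 0.81 on the controls and 3.21 and 3.02 on fibronectin, and after normalization it was 0.99 and 0.85 against 3.24 and 2.67. Between the groups the deposited ratio differed by 2.28 on the log2 scale, or 4.87-fold, while arrays of the same group were close together. Over the 850 genes with at least 2 tested probe sets, the ratio of the brightest 2 differed by a median of 0.62 in either direction, and for 43 genes, or 5.06%, it differed at least as much as for Casq2. In 36 of these 43, Casq2 included, the dimmer probe set was the one relatively lower on fibronectin. Brightness was the mean over all 4 arrays, so a probe set lower on fibronectin was more likely to rank as the dimmer. That count is therefore partly set by the ordering. Of the 32 genes whose probe sets were both at least as bright as 1387401_at, 1 differed that much, Casq2 itself, and the median was 0.31. The 3' to 5' ratio of Gapdh, at 1.64 and 1.15 on the controls and 6.02 and 3.52 on fibronectin, also separated the groups, as did that of beta-actin but not that of hexokinase. Their part in the Casq2 result was not tested. The position of the probe sets along the transcript was not analysed here.

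**Figure D2:**
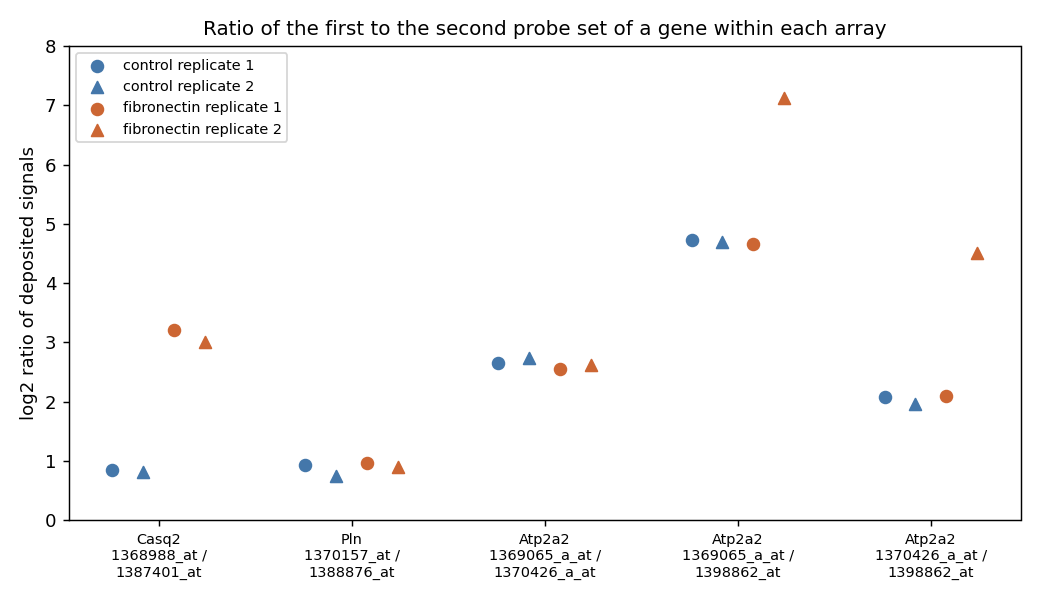
The vertical axis is the log2 ratio of the deposited signals of the first to the second named probe set of a gene within 1 array, with controls in blue, fibronectin in orange, circles for replicate 1 and triangles for replicate 2. The Casq2 ratio is 0.84 and 0.81 on the controls and 3.21 and 3.02 on fibronectin. The Pln ratio stays between 0.75 and 0.96, and the Atp2a2 ratios with 1398862_at stand apart on fibronectin replicate 2 alone.

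Casq1, the calsequestrin of fast skeletal muscle, had 1 probe set. It measured 8.07 and 7.56 on the controls and 7.90 and 9.22 on fibronectin replicates 1 and 2. The groups overlapped, with fibronectin replicate 1 between the controls. The difference of 0.75 (SE 0.50) had limma's Benjamini-Hochberg adjusted p = 0.772, and it was 0.09 without fibronectin replicate 2. Of 8 skeletal muscle markers only 2, Myh1 and Tnni2, passed the filter on dim signal, and 1, the lineage factor Myod1, was at the floor on all 4 arrays. The myosin gene Myh1 measured 11.93 and 11.72 on the controls and 12.09 and 11.55 on fibronectin. Tnni2 measured 6.63 and 7.23 against 7.68 and 6.54. On control replicate 1 Myh1 held 3629 of the list's summed deposited intensity of 3928. The summed normalized intensity of the list was 4223 and 3771 on the controls and 4787 and 3311 on fibronectin, and its part in the Casq1 values was not tested.

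Ryr2, the channel through which the reticulum releases calcium, had a higher mean on fibronectin but overlapping groups. Its deposited intensity was 217 and 99.1 on the controls, 572 on fibronectin replicate 1 and 162 on fibronectin replicate 2. Normalized values were 7.63, 6.81, 8.83 and 7.55 in that order, so fibronectin replicate 2 lay just below control replicate 1. The difference of 0.97 (SE 0.54, 95% interval -0.28 to 2.22) had limma's Benjamini-Hochberg adjusted p = 0.771. It was 0.33 without fibronectin replicate 1 and 1.61 without fibronectin replicate 2. It was 1.05 on the deposited scale.

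Triadin, encoded by Trdn, anchors calsequestrin to the release channel, and 3 of its 4 probe sets were left out as dim. Only 1370739_x_at was tested, a probe set whose suffix marks probes shared with other transcripts. It measured 6.70 and 6.76 on the controls and 7.33 and 4.94 on fibronectin replicates 1 and 2, so the fibronectin arrays lay on either side of the controls. Its difference was -0.60 (SE 0.83), and 0.60 without fibronectin replicate 2. The other 3 were at the floor on fibronectin replicate 2. There the deposited intensities were 5.85, 7.79 and 5.85 for 1371138_at, 1370198_at and 1370738_a_at, where the smallest step between values on that array was 1.95. On control replicate 1 the same probe sets had 68.7, 61.1 and 46.3.

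Hrc, a histidine-rich protein that binds calcium in the lumen and contacts both the pump and triadin, behaved on the arrays much as tested Trdn did. Its values were 8.17 and 8.33 on the controls, 8.60 on fibronectin replicate 1 and 7.33 on fibronectin replicate 2. The difference was -0.28 (SE 0.48), and 0.35 without fibronectin replicate 2. For Hrc and Trdn alike, 1 fibronectin array was the highest of the 4 and the other the lowest.

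Itpr1 encodes an inositol trisphosphate receptor, a release channel present in many cell types beside myocytes. It measured 7.75 and 8.17 on the controls and 8.01 and 9.07 on fibronectin. Fibronectin replicate 1 lay between the controls, and the difference of 0.58 (SE 0.45) was 0.05 without fibronectin replicate 2. Its deposited intensities were 234 and 248 against 311 and 433, higher on fibronectin without overlap, and differed by 0.61 on the log2 scale (limma's Benjamini-Hochberg adjusted p = 0.983).

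Calcium leaves the myocyte through the sodium-calcium exchanger encoded by Slc8a1 and, to a lesser extent, the plasma membrane pump encoded by Atp2b1. Slc8a1 probe set 1372449_at measured 10.76 and 10.60 on the controls and 10.58 and 9.86 on fibronectin. Fibronectin replicate 1 was thus almost level with control replicate 2, and the difference of -0.45 (SE 0.32) was -0.09 without fibronectin replicate 2. On the deposited scale fibronectin replicate 1 had the highest intensity of the 4 arrays, 1907, and fibronectin replicate 2 the lowest, 777. The dim Slc8a1 probe set 1370588_a_at was above the floor only on control replicate 2. Atp2b1 measured 7.99 and 8.80 on the controls and 7.87 and 8.20 on fibronectin. Its groups overlapped, and the difference of -0.36 (SE 0.41) was 0.05 without control replicate 2.

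**Figure D3:**
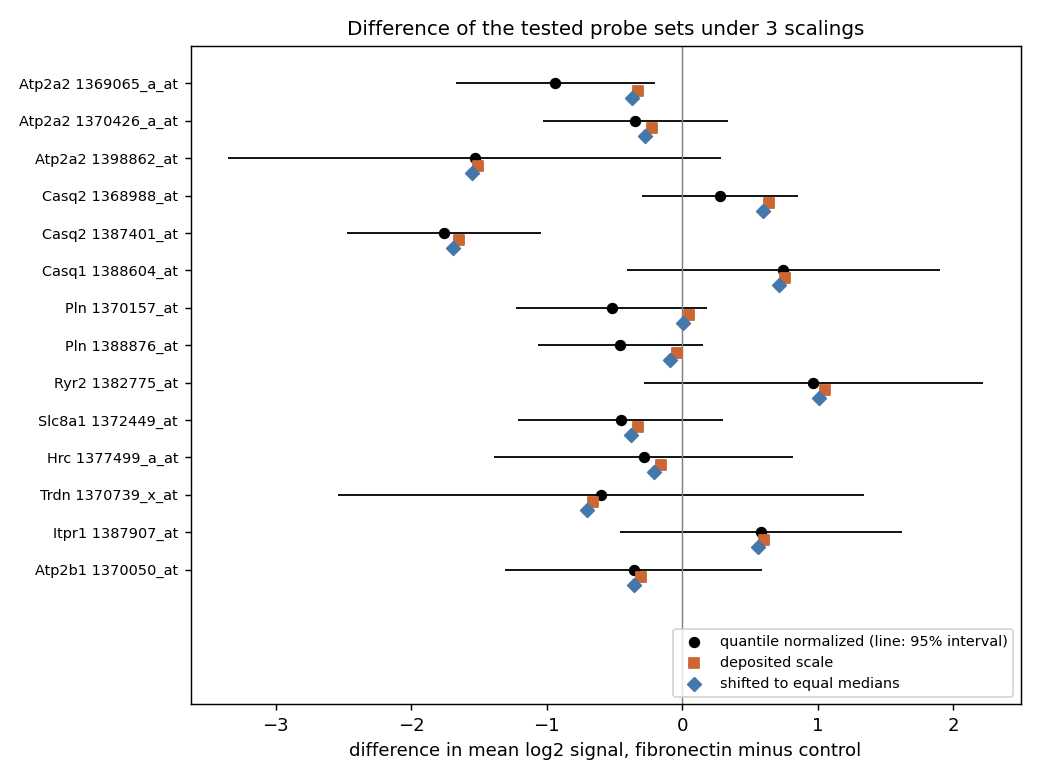
Each row is 1 of the 14 tested probe sets, and the horizontal axis is the mean log2 signal on fibronectin minus that on control. Black circles and lines are the quantile-normalized difference with its 95% interval from limma, unadjusted for the number tested, and squares and diamonds are the deposited and median-shifted scales. The intervals of Casq2 1387401_at and Atp2a2 1369065_a_at lie below 0, and for both Pln probe sets the deposited difference is within 0.06 of 0.

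Of the 5 genes with more than 1 probe set on the array, Casq2, Trdn, Atp2a2, Pln and Slc8a1, tested probe sets could be compared in Atp2a2, Casq2 and Pln, and Casq2 alone had differences of opposite sign after quantile normalization.

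Other genes of calcium handling, taken by their brightest tested probe set, did not lean one way. Of 65 listed, 59 were on the array and 43 had a tested probe set. By the brightest of these, 21 were higher and 22 lower on fibronectin, with a median difference of -0.03, against 0.02 over 7101 genes. Groups were free of overlap for 7 that were higher and 8 that were lower, 16.3% and 18.6% of the 43, near the 20.6% and 17.2% of all 7101 genes. In the test, 0 of 43 passed limma's Benjamini-Hochberg threshold, with 2 lower at an unadjusted p under 0.05. The list's median was 0.07 on the deposited scale.

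Among the 8 lower genes, the 4 with the largest differences were Ppp3r1, Atp2c1, Prkaca and Ppp1ca. Ppp3r1, the regulatory subunit of the phosphatase calcineurin, measured 9.64 and 9.46 on the controls and 8.45 and 7.63 on fibronectin. Its difference was -1.51 (SE 0.38), with limma's Benjamini-Hochberg adjusted p = 0.594. Without fibronectin replicate 1 it was -1.92, and without fibronectin replicate 2 it was -1.10. Prkaca, the catalytic subunit of the kinase that phosphorylates phospholamban, measured 10.61 and 10.27 on the controls and 9.73 and 9.19 on fibronectin, a difference of -0.97 (SE 0.32). Ppp1ca, a catalytic subunit of phosphatase 1, which removes that phosphate, differed by -0.57 (SE 0.30), from 10.68 to 10.11. Its difference was -0.30 without control replicate 2. Atp2c1, the calcium pump of the Golgi, differed by -1.15 (SE 0.80), and by -0.13 without fibronectin replicate 2.

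Among the 7 higher genes without overlap, the 4 with the largest differences were Camk2b, Sri, Letm1 and Ppp2ca, and the first 3 of these were smaller without fibronectin replicate 2. Camk2b, an isoform of calmodulin-dependent kinase, differed by 0.97 (SE 0.59), or 0.41 without that array. Sri, the gene of sorcin, a calcium sensor that binds the ryanodine receptor, differed by 0.70 (SE 0.43), or 0.18 without it. Letm1, an ion carrier of the inner mitochondrial membrane, differed by 0.70 (SE 0.41), or 0.23 without it, and by 0.44 in its other tested probe set. Ppp2ca, the catalytic subunit of phosphatase 2A, differed by 0.60 (SE 0.43), or 0.33 without fibronectin replicate 1.

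Some partners of the calcium cycling genes, chosen after their values were seen, had overlapping groups. Cacna1c, the pore of the L-type channel that triggers release, measured 8.02 and 7.82 on the controls and 7.86 and 6.96 on fibronectin. Jph2, the junctophilin that holds the reticulum to the surface membrane, measured 9.29 and 9.87 on the controls and 9.59 and 10.07 on fibronectin. Sln, a further small inhibitor of the pump, measured 7.76 and 6.50 on the controls and 8.30 and 5.56 on fibronectin.

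**Figure D4:**
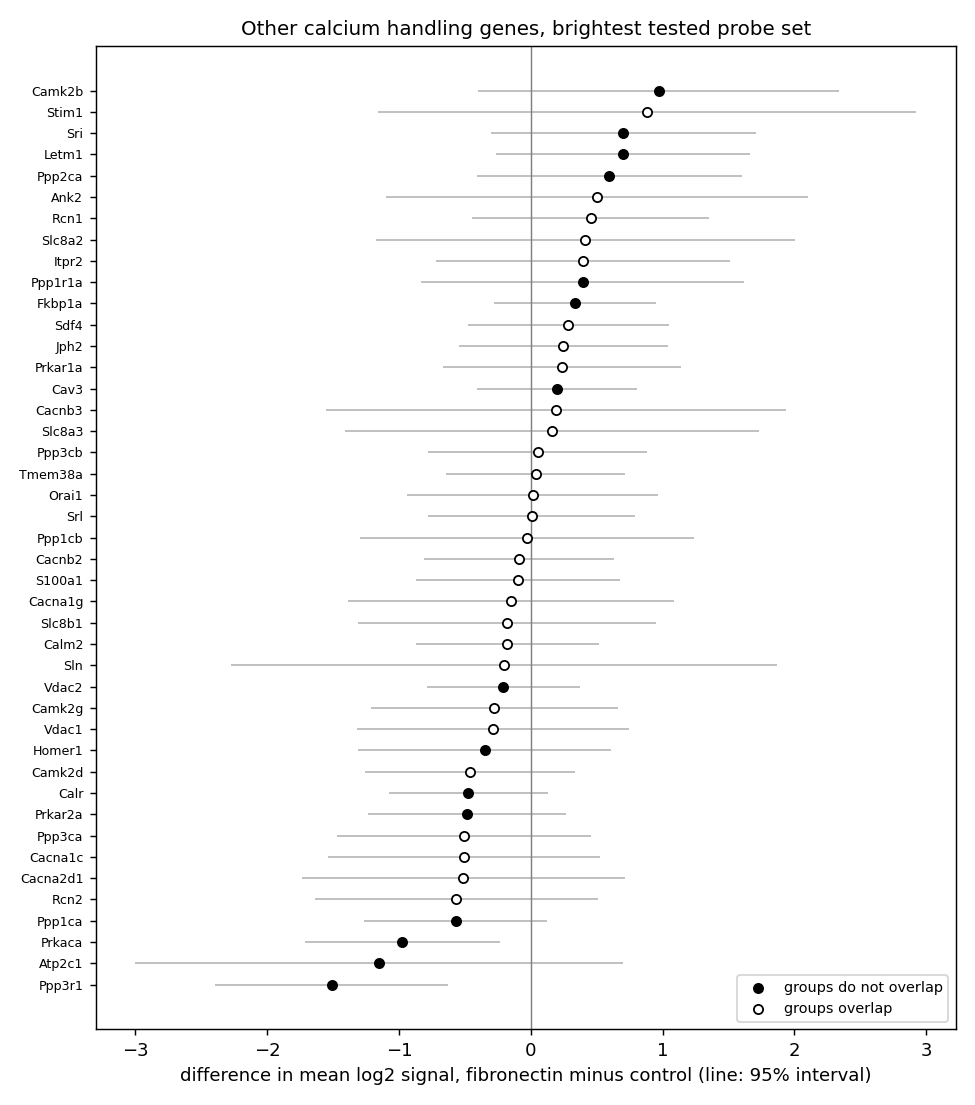
Each row is 1 of the 43 other calcium handling genes, by its brightest tested probe set, and the horizontal axis is the mean log2 signal on fibronectin minus that on control with limma's 95% interval, unadjusted for the number tested. Filled points are the 15 genes whose groups do not overlap. The points spread evenly to both sides of 0, with 21 above and 22 below, from -1.51 for Ppp3r1 to 0.97 for Camk2b.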

How the data were processed

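The table holds signal intensity on a linear scale, deposited as 1 value for each probe set of each array, and the steps by which it was made are not stated in the labels. Its 2%-trimmed means ran from 175.6 to 247.8, so arrays were quantile normalized. The 20th percentile of the result, 23.4, served as a floor before log2 was taken. After 9 control probe sets were set aside, the 6347 dimmest (40% by mean over all arrays) were dropped. Names came from the platform annotation, and all 10 genes matched the GRCr8 gene table by identifier and symbol. No genome coordinates were used. The coating groups were fitted in limma 3.58.1 (R 4.3.3; lmFit, then eBayes with a trend on intensity), two-sided, with Benjamini-Hochberg adjustment and a threshold of 0.05. The method was tested on simulated data. Precision is limited by 2 arrays per group.

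The genes followed, the calcium handling list and the marker lists were chosen with earlier results of these data known. Named from the list were, in each direction, the 4 genes of largest difference without overlap, and any past the threshold. Alternatives covered scale, filter, floor, variance model and threshold (0.10), a replicate block, and each array dropped in turn.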

Additional observations from a re-analysis of the deposited data

How the results depend on the processing

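Over all tested probe sets 0 passed limma's Benjamini-Hochberg threshold (616 at an unadjusted p under 0.05), and with an array left out the number ran from 0 to 337. It stayed at 0 on other scales and with other filters, floors, variance models or a threshold of 0.10, as did the counts of calcium cycling probe sets and of other calcium handling genes. With an array left out these counts ran from 0 to 1 each. Probe sets of the 10 genes lower without overlap numbered 6, but 1 on the deposited scale and 1 after the median shift, and those higher numbered 1, but 2 and 2. With an array left out there were 7 to 9 lower and 2 to 4 higher. A comparison of 1 array with 2 is more often free of overlap. The share over all tested probe sets was not computed there, so these counts cannot be set against the 6 and 1. The median of the other calcium handling genes, -0.03, was 0.0737 on the deposited scale and ran from -0.14 to 0.00226 with an array left out. Pln 1370157_at reversed to 0.0518 on the deposited scale and to 0.00405 after the median shift. With an array left out Atp2b1 ran from -0.77 to 0.0488, Hrc from -0.92 to 0.35 and Trdn 1370739_x_at from -1.79 to 0.60. The cause was not tested. Probe sets near the floor are limited by it.

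The labels share replicate numbers between groups without saying what they pair. Same-numbered arrays deviated together with r = 0.271 over probe sets, a single value with 2 pairs. With the replicate block 234 probe sets passed limma's threshold, among them 2 of the calcium cycling genes, Casq2 1387401_at and Atp2a2 1369065_a_at, and 2 of the other calcium handling genes, Ppp3r1 and Prkaca, in a fit with 1 residual degree of freedom per probe set.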
